A study of Mus musculus with 6 samples.

Results

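Genes for the surface, junctions and signalling of endothelial cells, the cells that line blood and lymphatic vessels, were followed in bulk RNA from kidneys of E13.5 mouse embryos. The list names 34 genes by symbol, and 33 of them were analysed among the 22394 genes of the deposited table. Levels of Sele, the adhesion molecule E-selectin of inflamed endothelium, were not analysed here. The first group was 3 libraries from mice labelled Foxd1Cre;Ptch1 (flox/-), called mutants here, in which Foxd1, expressed by stromal progenitors of the kidney, drives Cre, and Ptch1 has 1 floxed and 1 null allele. They were set against 3 libraries from littermates labelled Ptch1 (flox/+), called controls, with 1 floxed and 1 wild-type allele and no Cre in the label. Ptch1 is the receptor that holds Hedgehog signalling off, so by these genotypes the stroma loses it while other cells of the mutants carry 1 null allele. Cre was therefore not directed at endothelial cells themselves, although some descendants of Foxd1-expressing cells may lie outside the stroma. The comparison asks how the vessel genes of the kidney differ when Ptch1 is lost from the Foxd1 lineage.

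Kidney vessels form while the ureteric bud branches, partly from progenitors within the kidney and partly from vessels that grow in. Endothelial cells hold together through VE-cadherin, PECAM-1, claudins and connexins, carry a coat of sialomucins and lectins that keeps blood flowing, and read shear, BMP9, apelin and sphingosine-1-phosphate through surface receptors. Arteries, capillaries, veins and the tips of sprouts use different sets of these genes, and stromal cells around the vessels supply growth factors and mural cells. In RNA from whole kidneys, more endothelial cells and more RNA per endothelial cell cannot be told apart.

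Ptch1 itself was higher in mutants, at 23.5, 35.8 and 29.8 FPKM, against 8.26, 7.91 and 7.60 FPKM in controls. Hedgehog signalling induces Ptch1, and reads summed over all its exons cannot show whether the floxed part was removed. Foxd1 had 34.7, 58.6 and 54.8 FPKM in mutants, against 75.8, 31.5 and 82.4 FPKM in controls, with control 2 the lowest of all. Sex was not balanced. The Y-linked gene Ddx3y had 13.9 to 16.2 FPKM in mutants and 17.8 FPKM in control 2 but at most 0.0598 FPKM in controls 1 and 3, and Xist had 6.19 FPKM in mutant 3 but at most 0.206 FPKM in the other mutants. Mutant 3 thus had both signals, and whether its RNA came from more than 1 embryo was not tested. Depth ranged from 13261588 to 47847925 reads in mutants and from 21644399 to 25416896 reads in controls.

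Nearly all the endothelial genes had higher mean levels in mutant kidneys, and 7 of them passed the test. Levels are given as FPKM, reads scaled to gene length and library depth, and differences as log2 fold changes from limma on log2(normalized count + 1), mutant over control. All 33 genes passed the filter on low values, with at least 41 reads in each library. Of the 33, 7 rose at an adjusted p under 0.05 (limma, Benjamini-Hochberg over 16933 genes) and none fell, where 0.219% of all genes tested rose, 0.0886% fell and 0.307% did either. At an unadjusted p under 0.05, 28 members were higher and 0 lower, against 5.26% of all genes higher. Counting both directions, 1630 of the 16933 genes had such a p. Fold changes were positive for 32 of the 33, against 49.1% of all genes, and their median was 0.87, against -0.0074 over all genes. For 27 of the 33, every mutant lay above every control, a pattern that 7.57% of all genes showed. The exceptions were Mmrn1, Ramp2, Calcrl, Apln, Arhgef15 and Esm1. In terms of group means, 11 genes were at least 2-fold higher, 12 were 1.5-fold to 2-fold higher and 10 differed by less than 1.5-fold. The members were listed with earlier results of these data known, so these counts describe the list and are no independent test of it.

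**Figure D1:**
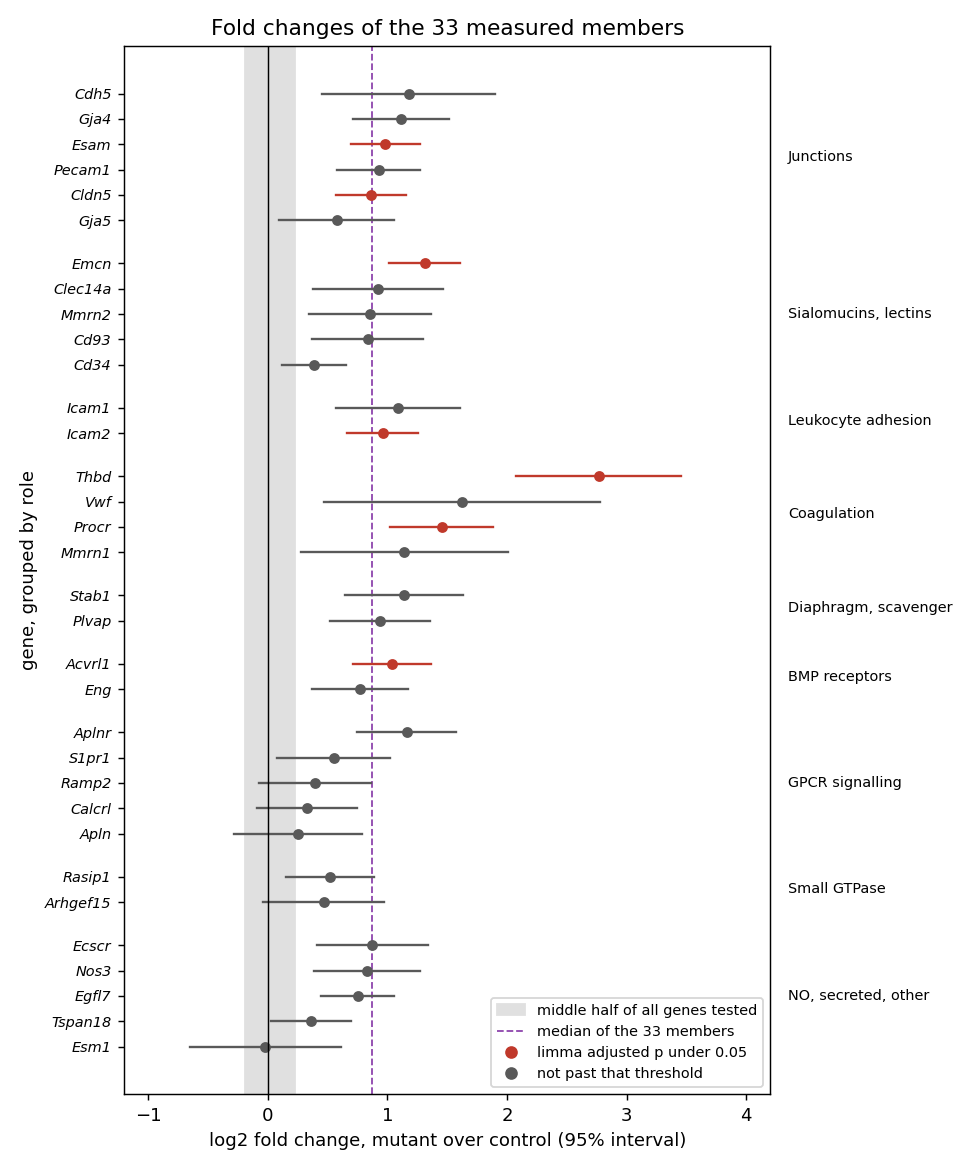
Log2 fold change (x axis, mutant over control, with 95% intervals) of the 33 measured endothelial genes, grouped by role, from 3 mutant and 3 control libraries. Points in red passed limma over all genes; the grey band spans the quartiles of all genes tested and the dashed line the members' median of 0.87. Thbd stands farthest right at 2.76 and Esm1 is the only point left of 0, at -0.02.

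Of the 7 genes that rose, Emcn had the smallest p. The gene encodes endomucin, a sialomucin of capillary and venous endothelium that limits leukocyte attachment. Emcn had 22.3, 21.7 and 25.8 FPKM in mutants 1 to 3, against 8.39, 10.3 and 9.47 FPKM in controls 1 to 3, and the groups lay far apart. The difference was 1.31 on the log2 scale, with an SE of 0.13 (limma adjusted p = 0.0105). Thbd encodes thrombomodulin, which turns thrombin from a clotting enzyme into an activator of anticoagulant protein C. Thbd had 5.02, 7.89 and 11.5 FPKM in mutants, against 1.23, 0.889 and 1.29 FPKM in controls, and even the lowest mutant was well above the highest control. Its 7.15-fold higher mean was a difference of 2.76 on the log2 scale, with an SE of 0.30 (limma adjusted p = 0.0139), the highest of the 33 genes. Procr, the receptor that presents protein C to the thrombin-thrombomodulin complex, acts in the same pathway. Procr had 6.52, 5.86 and 6.36 FPKM in mutants, against 2.34, 2.06 and 2.40 FPKM in controls (log2 fold change 1.45, SE 0.19, limma adjusted p = 0.0260), with little spread in either group.

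The other 4 genes that rose were 1.82-fold to 2.06-fold higher. Esam, an immunoglobulin-family adhesion protein at endothelial tight junctions, had 21.7, 23.6 and 23.8 FPKM in mutants, against 12.2, 10.6 and 12.1 FPKM in controls (log2 fold change 0.98, SE 0.13, limma adjusted p = 0.0246). Icam2, a constitutive endothelial ligand for leukocyte integrins, had 22.8, 24.9 and 23.6 FPKM in mutants, against 12.7, 11.4 and 12.6 FPKM in controls (log2 fold change 0.96, SE 0.13, limma adjusted p = 0.0297). Both genes had narrow groups with a wide gap between them. Acvrl1, the type I receptor ALK1 for BMP9 and BMP10, had 6.40, 7.33 and 7.27 FPKM in mutants, against 3.16, 3.66 and 3.38 FPKM in controls (log2 fold change 1.04, SE 0.14, limma adjusted p = 0.0314). Cldn5, the main claudin of endothelial tight junctions, had 70.0, 57.5 and 62.9 FPKM in mutants, against 31.4, 37.6 and 35.5 FPKM in controls (log2 fold change 0.86, SE 0.13, limma adjusted p = 0.0395). Mutant 2, the lowest mutant, still exceeded the highest control.

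**Figure D2:**
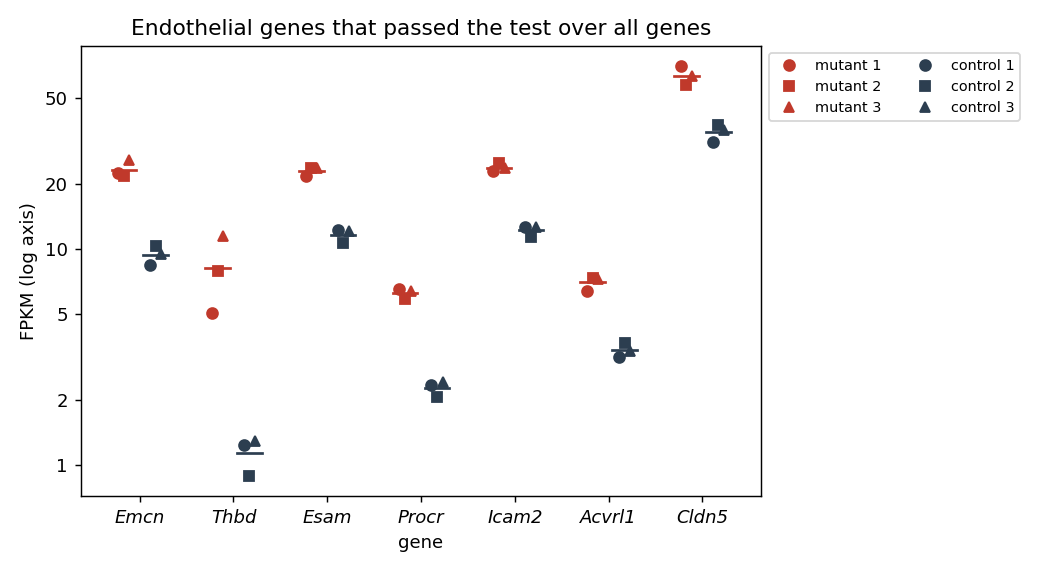
FPKM (y axis, log scale) of the 7 endothelial genes that passed limma over all genes, with 1 symbol per library and a line at each group mean (3 mutants in red, 3 controls in dark blue). The groups do not overlap for any of the 7, and Thbd has the widest spread among mutants, 5.02 to 11.5 FPKM.

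These calls rest on 3 libraries a group. Leaving out 1 library at a time gave 1, 0 and 1 endothelial calls without mutant 1, 2 or 3 and 1, 16 and 2 without control 1, 2 or 3. The same fits called 12, 9 and 13 genes in all without mutant 1, 2 or 3 and 15, 158 and 19 without control 1, 2 or 3. Without control 2, mutants with Ddx3y are set against controls almost without it, so genotype and sex cannot be told apart there. The members' median log2 fold change stayed between 0.79 and 1.00. Under a GC correction chosen after seeing the data, Acvrl1 and Cldn5 no longer passed limma and Gja4 did. That correction gave 6 members and 48 genes in all. On log2(FPKM + 0.1) Acvrl1 did not pass, with 6 members and 47 genes in all. With a sex term, which leaves control 2 as the only control for the genotype, 17 members passed and the median was 0.97, while the genes called in all numbered 1082, against 52 without that term.

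The 7 genes lie on chromosomes 2 (Thbd, 148404466 to 148408188, and Procr, 155751117 to 155755471), 3 (Emcn, 137341067 to 137432185), 9 (Esam, 37528078 to 37538319), 11 (Icam2, 106377656 to 106388075), 15 (Acvrl1, 101128522 to 101145336) and 16 (Cldn5, 18776847 to 18778262), in GENCODE M21 on GRCm38. Promoters of 250 bases before to 50 bases after the transcription start were found in the RefSeq table (GRCm38.p6) for 17 of the 34 members, among them Emcn, Procr and Cldn5. They are shown for these 3 genes, the only ones of the 7 with a promoter found. Each is on the gene's own strand, with matches to the searched motifs in capitals.
Emcn, chr3:137340828-137341127, plus strand: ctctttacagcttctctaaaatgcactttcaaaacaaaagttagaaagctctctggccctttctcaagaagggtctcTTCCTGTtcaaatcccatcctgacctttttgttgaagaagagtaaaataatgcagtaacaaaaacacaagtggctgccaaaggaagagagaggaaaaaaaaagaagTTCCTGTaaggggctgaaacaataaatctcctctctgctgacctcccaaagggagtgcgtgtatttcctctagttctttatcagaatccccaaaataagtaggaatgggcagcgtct
Procr, chr2:155750967-155751266, plus strand: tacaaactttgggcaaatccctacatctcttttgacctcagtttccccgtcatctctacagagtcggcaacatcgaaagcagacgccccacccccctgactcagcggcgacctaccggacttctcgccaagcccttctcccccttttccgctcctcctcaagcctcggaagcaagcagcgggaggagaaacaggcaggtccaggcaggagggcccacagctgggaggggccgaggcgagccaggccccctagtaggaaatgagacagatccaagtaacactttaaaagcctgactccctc
Cldn5, chr16:18776597-18776896, plus strand: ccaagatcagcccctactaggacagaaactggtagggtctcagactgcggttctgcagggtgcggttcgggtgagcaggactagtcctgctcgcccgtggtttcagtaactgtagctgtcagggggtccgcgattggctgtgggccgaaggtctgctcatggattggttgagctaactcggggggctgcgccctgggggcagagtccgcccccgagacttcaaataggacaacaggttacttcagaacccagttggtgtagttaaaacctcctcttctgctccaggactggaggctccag

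The motifs were searched on both strands. ACAGGAA is the core of the composite site that forkhead and ETS factors bind together in endothelial enhancers, and it reads TTCCTGT on the opposite strand. It was present for 7 of the 17 members with a promoter (41.2%), against 9.73% of the 27025 genes in the table. The 7 were Emcn and Egfl7, with 2 matches each, and Calcrl, Rasip1, Esm1, Stab1 and Sele. The ETS core CCGGAA was present in Icam1 alone (5.88%, against 16.7% of all genes), and the core CCACCCA of the site for the Hedgehog effectors GLI was present in Cd34, Eng and Rasip1 (17.6%, against 10.6%). No match overlapped a match to another of the 3 motifs. The windows around ACAGGAA in the measured genes other than Emcn are shown so that the flanks can be compared, with capitals marking that core.
Egfl7, chr2:26580981-26581009, plus strand: ctgggagacaaACAGGAAggccatctctc
Egfl7 second start, chr2:26583772-26583800, plus strand: agagaacacacACAGGAAgtccggcggga
Calcrl, chr2:84425317-84425345, minus strand: ggggtgatgtaACAGGAAgctgtgatgtt
Rasip1, chr7:45627461-45627489, plus strand: cctcttgccttTTCCTGTcccccacccag
Esm1, chr13:113209431-113209459, plus strand: tgtcagagcaaTTCCTGTgcagtaggggg
Stab1, chr14:31168637-31168665, minus strand: atcctggtgggTTCCTGTgggggtgagct
The 6 measured genes with the ACAGGAA core included the member with the lowest fold change and 1 that passed the test, with log2 fold changes of 1.31 for Emcn, 1.14 for Stab1, 0.75 for Egfl7, 0.52 for Rasip1, 0.33 for Calcrl and -0.02 for Esm1. Cldn5 and Procr rose with no match to any of the 3 motifs in their windows.

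Of the 6 junction genes, all had every mutant above every control, and Esam and Cldn5 passed the test. Cdh5 encodes VE-cadherin, the adhesion protein of endothelial adherens junctions. It had 26.3, 33.9 and 52.1 FPKM in mutants, against 19.9, 10.02 and 20.1 FPKM in controls, so both groups were wide, with control 2 low and mutant 3 high. The difference of 1.18 on the log2 scale had an SE of 0.32 and did not pass (limma adjusted p = 0.281). Pecam1, the adhesion and mechanosensing receptor CD31 at cell borders, had 26.9, 31.4 and 38.3 FPKM in mutants, against 18.1, 15.1 and 17.3 FPKM in controls (log2 fold change 0.93, limma adjusted p = 0.0637). Gja4 and Gja5 encode connexin 37 and connexin 40, which form gap junctions in arteries. Gja4 had 15.1, 11.4 and 12.3 FPKM in mutants, against 6.20, 5.11 and 6.52 FPKM in controls, and just missed the threshold (log2 fold change 1.11, limma adjusted p = 0.0539). Gja5 was lower and differed less, at 2.62, 3.57 and 3.07 FPKM in mutants, against 1.69, 2.46 and 2.09 FPKM in controls (log2 fold change 0.57, limma adjusted p = 0.456).

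Sialomucins and C-type lectins of the endothelial surface, with the matrix ligand gene Mmrn2, made up 5 genes. In all 5 the mutants lay above the controls, with Emcn the single call. Cd34, a sialomucin of endothelium and blood progenitors, had the smallest difference of the 5. It had 24.1, 25.9 and 29.2 FPKM in mutants, against 19.3, 21.1 and 20.04 FPKM in controls (log2 fold change 0.39, SE 0.12, limma adjusted p = 0.369). Cd93 and Clec14a are lectin-like receptors of the same family as thrombomodulin, and multimerin 2, encoded by Mmrn2, is their ligand in the vessel wall matrix. The receptor Cd93 averaged 9.31 ± 2.55 FPKM in mutants and 5.11 ± 0.593 FPKM in controls (SD, n = 3 each). Clec14a averaged 5.22 ± 1.25 FPKM in mutants and 2.76 ± 0.752 FPKM in controls, and the ligand gene Mmrn2 7.04 ± 1.69 FPKM in mutants and 3.88 ± 0.798 FPKM in controls (SD, n = 3 each). These 3 genes thus had like log2 fold changes of 0.83, 0.92 and 0.85, and none passed limma (adjusted p of 0.218, 0.249 and 0.258).

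Thbd and Cd93 are neighbours on chromosome 2, 28.5 kb apart, and belong to the same lectin family, but their fold changes differed, at 2.76 and 0.83. The ratio of Thbd to Cd93 in FPKM was 0.743, 0.846 and 0.969 in mutants, against 0.215, 0.196 and 0.255 in controls. The ratio was higher in every mutant than in every control, by 1.94 on the log2 scale (exact two-sided permutation test over libraries, p = 0.1, the smallest that 3 against 3 allows). The pair was chosen after its values were seen. Pecam1 and Icam2, which lie 266 kb apart on chromosome 11, had a ratio of 1.18, 1.26 and 1.63 in mutants, against 1.43, 1.33 and 1.37 in controls (difference -0.03 on the log2 scale, exact two-sided permutation test, p = 0.9).

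The coagulation genes had the highest median fold change of the role groups, 1.54 over 4 genes, and 2 of them, Thbd and Procr, rose. Vwf and Mmrn1 encode von Willebrand factor and multimerin 1, carrier proteins stored in endothelial granules and in platelets. Vwf had 0.325, 0.711 and 1.58 FPKM in mutants, against 0.239, 0.266 and 0.189 FPKM in controls, the lowest levels of the 33 genes. Mutant 1 was only slightly above the controls and mutant 3 several times higher, and the difference of 1.62 on the log2 scale had an SE of 0.51 (limma adjusted p = 0.376). Mmrn1 had 1.54, 3.22 and 4.57 FPKM in mutants, against 1.29, 1.02 and 1.59 FPKM in controls, and mutant 1 fell within the control range (log2 fold change 1.14, limma adjusted p = 0.411). Platelets and their precursors also make both proteins. Of 10 megakaryocyte and platelet markers, 6 were tested and none passed (2 at an unadjusted p under 0.05, against 1630 of 16933 genes tested). Their summed levels were 10.1 to 15.1 FPKM in mutants and 7.005 to 7.74 FPKM in controls. Gp6 was listed at 0 in control 2, and the part of this difference in Vwf and Mmrn1 was not tested.

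Leukocyte adhesion was represented by Icam2, described above, and Icam1, an inducible integrin ligand. Icam1 had 4.404, 4.13 and 5.99 FPKM in mutants, against 2.602, 1.79 and 2.39 FPKM in controls, without overlap (log2 fold change 1.09, SE 0.23, limma adjusted p = 0.126). Plvap forms the diaphragms of fenestrae and caveolae, and Stab1 encodes the scavenger receptor stabilin 1 of sinusoidal and lymphatic endothelium and of macrophages. Plvap had 46.3, 51.1 and 59.6 FPKM in mutants, against 32.5, 20.8 and 29.3 FPKM in controls (log2 fold change 0.94, limma adjusted p = 0.105). Stab1 had 5.50, 5.58 and 7.78 FPKM in mutants, against 3.05, 2.11 and 3.45 FPKM in controls (log2 fold change 1.14, limma adjusted p = 0.0936). Both genes were lowest in control 2, and neither group overlapped the other. Macrophage markers were 15 genes, none of which passed (7 at an unadjusted p under 0.05, against 1630 of 16933 genes tested). However, 14 had positive fold changes, and the summed level of these markers was 36.3 to 58.0 FPKM in mutants and 27.5 to 33.9 FPKM in controls. Their part in the Stab1 and Icam1 values was not tested.

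Eng encodes endoglin, the co-receptor that binds BMP9 alongside ALK1. Eng had 22.1, 16.7 and 25.2 FPKM in mutants, against 13.9, 10.8 and 12.6 FPKM in controls, with mutant 2 the lowest mutant (log2 fold change 0.77, limma adjusted p = 0.165). Aplnr, the apelin receptor of venous and sprouting endothelium, had 22.2, 28.4 and 35.1 FPKM in mutants, against 13.7, 13.4 and 10.8 FPKM in controls. At 1.16 on the log2 scale, with an SE of 0.18, it narrowly missed the threshold (limma adjusted p = 0.0510). Its ligand gene Apln, which marks tip cells, had 2.42, 4.32 and 3.86 FPKM in mutants, against 2.91, 2.99 and 2.74 FPKM in controls, and mutant 1 was below all controls (log2 fold change 0.25, 95% interval -0.28 to 0.79, limma adjusted p = 0.691).

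The remaining receptor genes had smaller differences. Calcrl encodes the receptor for adrenomedullin and Ramp2 the accessory protein that gives it that specificity. Ramp2 had the highest level of all members, at 81.3, 61.2 and 73.8 FPKM in mutants, against 72.7, 42.0 and 52.6 FPKM in controls, and the groups overlapped (log2 fold change 0.40, 95% interval -0.07 to 0.86, limma adjusted p = 0.557). Calcrl had 11.8, 13.4 and 14.8 FPKM in mutants, against 12.7, 8.05 and 11.6 FPKM in controls, with control 1 above mutant 1 (log2 fold change 0.33, 95% interval -0.09 to 0.75, limma adjusted p = 0.579). S1pr1, the sphingosine-1-phosphate receptor that stabilises vessel junctions, averaged 4.94 ± 1.09 FPKM in mutants and 3.33 ± 0.409 FPKM in controls (SD, n = 3 each; log2 fold change 0.55, limma adjusted p = 0.466), with mutant 1 barely above control 2.

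Regulators of the endothelial cytoskeleton, Rasip1, an effector of Rap1 needed to open vessel lumens, and Arhgef15, expressed in endothelial cells, also had small differences. Rasip1 had 16.3, 17.7 and 18.8 FPKM in mutants, against 10.5, 15.3 and 11.3 FPKM in controls (log2 fold change 0.52, limma adjusted p = 0.370). Arhgef15 had 6.47, 8.41 and 8.06 FPKM in mutants, against 4.59, 7.75 and 4.65 FPKM in controls (log2 fold change 0.47, limma adjusted p = 0.541). In both genes control 2 was the highest control, and for Arhgef15 it exceeded mutant 1.

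Among the other members, Nos3, the endothelial nitric oxide synthase, averaged 5.39 ± 0.759 FPKM in mutants and 3.06 ± 0.643 FPKM in controls (SD, n = 3 each; limma adjusted p = 0.184). Egfl7, a secreted protein of the vessel matrix, averaged 61.1 ± 7.21 FPKM in mutants and 36.2 ± 3.65 FPKM in controls (SD, n = 3 each; limma adjusted p = 0.0797). Ecscr, an endothelial membrane protein that acts in migration and survival, had 14.4, 13.6 and 15.6 FPKM in mutants, against 6.25, 7.84 and 10.01 FPKM in controls (log2 fold change 0.87, limma adjusted p = 0.175). Tspan18, a tetraspanin that regulates calcium entry, averaged 21.6 ± 3.88 FPKM in mutants and 16.6 ± 0.783 FPKM in controls (SD, n = 3 each; limma adjusted p = 0.490). Esm1, a proteoglycan secreted by tip cells, was the only member with a negative estimate. Esm1 had 2.22, 2.10 and 1.73 FPKM in mutants, against 2.88, 1.79 and 1.63 FPKM in controls, a log2 fold change of -0.02 (95% interval -0.65 to 0.61, limma adjusted p = 0.981). Its sign turned with upper-quartile scaling (0.02).

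The order of the members by level was much the same in both groups at the top. Ramp2 was first in both, at 72.1 ± 10.2 FPKM in mutants and 55.8 ± 15.5 FPKM in controls (SD, n = 3 each). Cldn5 and Egfl7 followed, at 63.4 ± 6.27 and 61.1 ± 7.21 FPKM in mutants and 34.8 ± 3.19 and 36.2 ± 3.65 FPKM in controls, so their order did not exceed the spread in either group. Plvap came next in both, at 52.3 ± 6.76 FPKM in mutants and 27.6 ± 6.06 FPKM in controls. Emcn ranked 10 in mutants and 15 in controls, and Cd34 ranked 8 in mutants and 5 in controls. Thbd had the widest difference in rank, 19 in mutants and 32 in controls. Vwf was last in both groups.

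The members were also measured against other endothelial genes. For this, the mean of Kdr, Flt1, Tek, Tie1, Robo4, Ptprb, Erg, Sox7, Sox18 and Myct1, endothelial receptors and transcription factors outside the list, was subtracted from each library on the log2 scale. On that scale the median of the members was 0.07, and 14 of 33 lay within 0.25 of 0. Thbd was 1.96 higher than the endothelial mean in mutants relative to controls (SE 0.26, limma adjusted p = 0.000751), Emcn 0.50 higher (SE 0.16, limma adjusted p = 0.0184) and Procr 0.64 higher (SE 0.26, limma adjusted p = 0.0489), where 0.378% of all genes were called higher. Cd34, Tspan18, Calcrl and Esm1 were lower, with values of -0.42, -0.45, -0.48 and -0.83 (limma adjusted p of 0.0269, 0.0326, 0.0453 and 0.0464), so they differed less between mutants and controls than those 10 genes did. On this scale 63.7% of all genes were called lower. The adjustment over all genes is then lenient, as the unadjusted p of 0.0312 for Procr shows. With the median of the 10 genes in place of their mean, Thbd and Emcn alone passed. Leaving out 1 library at a time kept Thbd in all 6 fits and Emcn in 4, being lost without control 1 or control 3. Procr was called in 0 of the 6 fits and not with the replicate block, but it was called with the GC correction chosen after seeing the data. The replicate block kept Thbd, Emcn, Tspan18, Calcrl and Esm1. The GC correction kept Thbd, Emcn, Tspan18 and Calcrl beside Procr. Of the genes called lower, Tspan18 was kept in 3 of the 6, Esm1 in 2, Cd34 in 1 and Calcrl in 1. The 10 reference genes had a median log2 fold change of 0.80, against 0.68 over all 32 other endothelial genes described below. A wider reference was not tested.

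**Figure D3:**
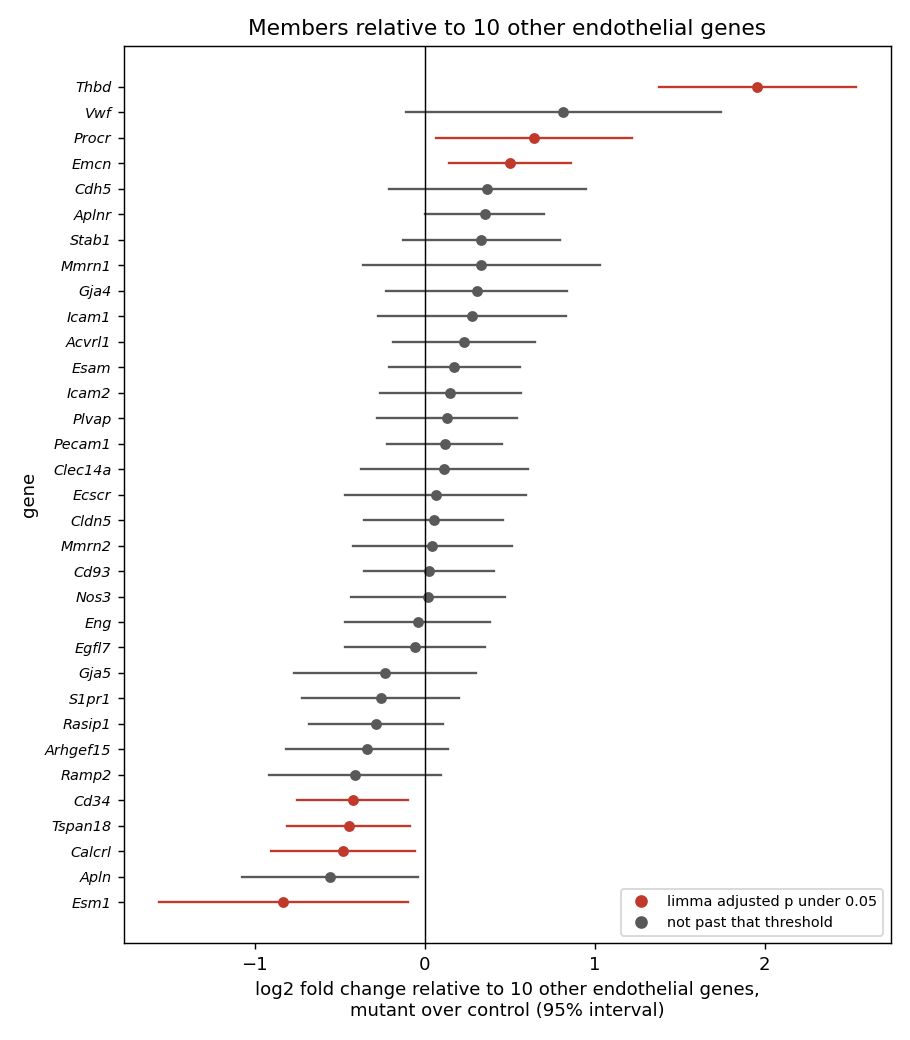
Log2 fold change of the 33 members after subtracting the mean of 10 other endothelial genes in each library (x axis, mutant over control, with 95% intervals; red, limma adjusted p under 0.05). Thbd lies far to the right at 1.96, 14 of the 33 lie within 0.25 of 0, and Cd34, Tspan18, Calcrl and Esm1 lie to the left.

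The 32 other endothelial genes included the 10 used as the reference above. Of the 32, 29 had positive fold changes and 17 had every mutant above every control, 8 of these from those 10. Only 1, also from those 10, rose in limma over all genes. That gene was Tie1, a receptor tyrosine kinase of the angiopoietin system, at 22.1 ± 2.79 FPKM in mutants and 10.6 ± 0.444 FPKM in controls (SD, n = 3 each; log2 fold change 1.05, limma adjusted p = 0.0175). Their median of 0.68 was lower than the members' 0.87, a difference that was not tested. The next smallest p belonged to Angpt2, a Tie2 ligand of sprouting vessels, at 7.62 ± 2.59 FPKM in mutants and 2.29 ± 0.514 FPKM in controls (log2 fold change 1.69, limma adjusted p = 0.0659). Grrp1 and the flow-responsive factor gene Klf2 came next, with log2 fold changes of 0.84 and 0.79 (limma adjusted p of 0.0813 and 0.0885).

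Lists for subtypes of endothelium gave no calls. No gene passed limma among 10 arterial genes (5 with an unadjusted p under 0.05, median 0.46), 10 venous or lymphatic genes (5, median 0.46) or 10 tip cell genes (5, median 0.39). The authors' deposited table called 2, 3 and 3 of them higher and none lower. Over all genes tested, 1630 of 16933 had an unadjusted p under 0.05 in limma, in either direction. These lists share genes with the members, among them Gja4, Aplnr and Apln. In the venous and lymphatic list the smallest p belonged to the members Aplnr, Stab1 and Mmrn1, followed by the scavenger receptor gene Stab2 (log2 fold change 1.12, limma adjusted p = 0.478). Reln, the remaining gene of that list at an unadjusted p under 0.05, was lower (log2 fold change -0.64, limma adjusted p = 0.490). Fold changes were positive for 8 of the 10.

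Libraries of the same group differed in their endothelial level. The members' median deviation from the control mean was 0.68, 0.87 and 1.03 on the log2 scale in mutants 1 to 3, against 0.05, -0.10 and 0.03 in controls 1 to 3. The 10 outside endothelial genes gave 0.59, 0.82 and 1.02 in mutants, against 0.01, 0.03 and -0.03 in controls. Mutant 3 was the highest mutant for 22 of the 33 members, against 32.8% of all genes tested. Mutant 1 was the lowest mutant for 22 of the 33, against 42.9% of all genes. The gap between mutants 3 and 1 was widest for Vwf (2.26), Mmrn1 (1.57) and Thbd (1.19) and ran the other way for Esm1 (-0.36), Gja4 (-0.30), Egfl7 (-0.18), Cldn5 (-0.15), Ramp2 (-0.14) and Procr (-0.04). Control 2 was the lowest control for 16 members and the highest for 14, so it stood apart in both directions, as it did for all genes (39.4% and 41.6%). Against the mean of controls 1 and 3 it was lowest for Cdh5 (-0.996), Stab1 (-0.62) and Calcrl (-0.59) and highest for Arhgef15 (0.75), Clec14a (0.63) and Nos3 (0.50).

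**Figure D4:**
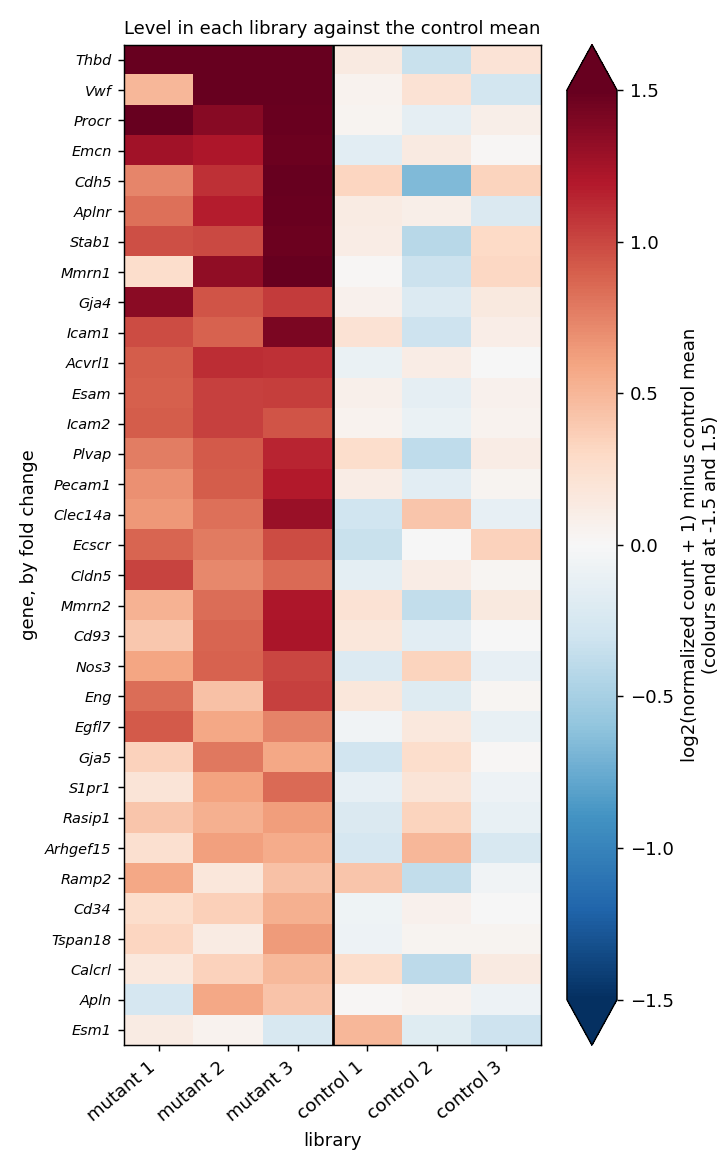
Deviation of log2(normalized count + 1) from the mean of the 3 controls (colour, ending at -1.5 and 1.5) for each member (rows, by fold change) in each library (columns, 3 mutants left of 3 controls). Mutant columns are red down to the lowest rows, mutant 3 is darkest for most members, and control 2 is blue for Cdh5 and red for Arhgef15.

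Other cell types were measured beside these values. Mural cell markers summed to 119 to 173 FPKM in mutants and 82.2 to 111 FPKM in controls, and 9 of 12 had positive fold changes with none past limma and 6 at an unadjusted p under 0.05. Erythroid genes summed to 2702 to 5036 FPKM in mutants and 3702 to 4604 FPKM in controls, so their groups overlapped. Of these 10 genes, 1 fell, the globin gene Hba-a2, at 1.64, 1.35 and 7.55 FPKM in mutants, against 121, 106 and 62.9 FPKM in controls (limma adjusted p = 0.0147). Its reads may be split with its near-identical copy Hba-a1, and its value is uncertain. Nephron and podocyte markers summed to 283 to 342 FPKM in mutants and 305 to 350 FPKM in controls, and none of 8 tested passed limma (2 at an unadjusted p under 0.05). Those 2, Wt1 and Eya1, had log2 fold changes of -0.55 and -0.46. Both had every mutant below every control, a pattern that 1539 of the 16933 genes tested showed. Of the 9 nephron and podocyte markers, the authors' deposited table called 1 lower, Wt1 (adjusted p = 0.0104), and none higher. It called 244 genes lower in all. Skeletal muscle genes were lower, at 19.3 to 26.2 FPKM in mutants and 48.6 to 81.9 FPKM in controls, and 6 of 11 tested fell in limma. The summed level of the 33 endothelial genes was 589 to 698 FPKM in mutants and 342 to 385 FPKM in controls. The part of these cell types in the endothelial values was not tested.

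Exons of 11 members overlap those of another annotated gene, among them Eng with Fpgs, Stab1 with Nt5dc2, Egfl7 with Agpat2, Nos3 with Atg9b and Ramp2 with Vps25. No source used here says whether reads were counted by strand, and reads of such pairs may be mixed.

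The authors' deposited table called 21 of the 33 members higher and none lower, where 3.07% of all genes with an adjusted p were higher. All 7 genes that rose in limma were among them. Cdh5 had a log2 fold change of 1.49 (adjusted p = 5.58e-12) in the authors' deposited table, Pecam1 of 1.04 (adjusted p = 4.42e-06) and Plvap of 1.14 (adjusted p = 1.53e-07), all larger than in limma, and these 3 were picked after their values were seen. Those fold changes weight the libraries unequally. Regressed on the 6 libraries over 10673 genes, the fold changes of the authors' deposited table had weights of 0.29, 0.27 and 0.41 on mutants 1 to 3 and of 0.0089, -0.58 and -0.39 on controls 1 to 3, where a plain difference of group means would give 0.33 and -0.33. Control 1 thus had almost no weight. No source used here gives the covariates of that fit.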

How the data were processed

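RNA of whole embryonic kidneys was sequenced in 6 libraries, 3 mutant and 3 control. The submitters' processing notes name HTSeq 0.6.1p2, STAR 2.6.0c, DESeq2 and Trim Galore, and the build mm10, without role or order. The deposited library columns were taken as FPKM made by the authors, a unit read from the values, since no header names it. The deposited table also holds the authors' mean normalized signal, log2 fold changes with errors, test scores and p-values, per the file headers. Multiplying FPKM by the ratio of mean signal to mean FPKM removed gene length and gave normalized counts, whole multiples of 1 read for 100% of values within 1e-06 of a read.

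Genes with at least 10 normalized counts in 3 or more libraries (16933) were tested with limma 3.58.1 in R 4.3.3 on log2(normalized count + 1), with an intensity trend and no covariate, adjusted by Benjamini-Hochberg over all genes. Fold changes on this scale understate low genes. The code was tested on simulated data. The design text names separate mice, so p-values measure the spread between libraries taken as separate mice, with litters unlabelled. Mutant 3, with reads of both Ddx3y and Xist, may not be a single mouse, which was not tested. The sex term counted it as male. Every member is named, with values per library for those that passed and for the highest and lowest of each role. Other lists give counts and up to 4 genes with the smallest p, with Reln added as a gene that went the other way. The members and lists were chosen with earlier results of these data known. Alternatives were pseudocounts, filters, scalings, library weights, a sex term, a replicate block, libraries left out and, added after seeing the data, a GC correction.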

Additional observations from a re-analysis of the deposited data

How the results depend on the processing

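The median log2 fold change of the members moved by less than the spread between libraries under every alternative run, and 32 or 33 of 33 fold changes were positive in each. The counts of calls were less stable. Main counts were 7 members, 1 other endothelial gene and 52 genes in all. Array weights gave 23, 15 and 380, the sex term 17, 8 and 1082, and the results the authors deposited gave 21, 13 and 732. The replicate block gave 2, 0 and 17. Deviations of same-numbered libraries correlated at 0.00, -0.10 and 0.31, and not every library correlated best with its own number. With 3 libraries a group, these values cannot decide whether the sample numbers pair the libraries. Upper-quartile scaling called 2 other endothelial genes. Leaving out 1 library gave 0 to 16 members, 0 to 7 other endothelial genes and 9 to 158 genes, highest without control 2. In the fit without control 2, genotype and sex cannot be told apart. Relative to the 10 endothelial genes, 7 members passed. With the median of those genes 2 passed, with the replicate block 5, with the GC correction 5 and with 1 library left out 1 to 7.

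Esm1 turned positive with upper-quartile scaling (0.0242), array weights (0.0702), the sex term (0.16) and GC correction, which was chosen after seeing the data (0.0178), without mutant 3 (0.09) or control 1 (0.23; lowest -0.18 without control 3), and in the authors' deposited table (0.19). Arhgef15 turned negative with the sex term (-0.0276). The causes were not tested. Depth limits the low members most, the fewest reads of a member in a library being 41.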
